A study of Mus musculus with 6 samples.

Results

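Transcripts of 9 G protein-coupled receptors, grouped under the name of metabolite and lipid sensing receptors, were followed in cultured microglia: Gipr, Cnr2, Gpr84, Gpr65, Gpr132, Gpr183, Hcar2, Gpr18 and Gpr35. Each was taken by its symbol from 48005 gene entries of the count table, and none of the 9 shared its entry with another gene. The 9 were chosen by their measured differences between EV-treated and control cells in these same libraries, so those differences are given as a description with no test. The EV-treated group was 3 samples (A, B and C) of microglia, the resident macrophages of the brain, that received extracellular vesicles (EVs), membrane-bound particles released by cells. Serial centrifugation was used to collect the vesicles from neural stem cells grown as monolayers from the subventricular zone, a stem cell niche of the adult forebrain. The control group was 3 samples (A, B and C) of microglia given the control treatment. Cells and vesicles came from CD1 mice, an outbred strain, and all cells were cultured outside the brain. The sources used here give no vesicle dose, treatment time, age of the animals or content of the control treatment.

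Receptors of this kind span the plasma membrane and pass the binding of a small molecule outside the cell to G proteins inside it, which raise or lower cyclic AMP or release calcium. G protein-coupled receptor kinases and arrestins then end the signal and draw the receptor inward. Microglia use such receptors to read lipids, acids and products of metabolism in their surroundings. The name of the group holds for most but not all of the 9. Gipr is the receptor of a peptide hormone, the incretin GIP, and Gpr65 is known foremost as a sensor of protons.

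Polyadenylated RNA was sequenced, and the counts summed to 142805303, 133112063 and 139149393 in the EV-treated libraries A, B and C, against 120734562, 109744701 and 162544804 in the control libraries A, B and C. Levels are CPM (counts relative to the library's total, with library sizes adjusted by TMM) unless stated otherwise. The summed level of 8 microglial markers was 2633 to 2789 CPM in EV-treated libraries and 4022 to 5461 CPM in control libraries, and 5 of the 8 were lower in every EV-treated library. Of these 5, Cx3cr1 stood at 1.76 to 2.98 CPM in EV-treated libraries and 226 to 394 CPM in control libraries, while Csf1r, Aif1 and Itgam, whose entry joins 3 genes, overlapped between the groups. Markers of astrocytes summed to 88.3 to 123 CPM in EV-treated libraries and 10.9 to 15.5 CPM in control libraries, with 3 of 6 higher and 1 lower in every EV-treated library. Slc1a2 (55.7 to 90.6 CPM in EV-treated and 0.0315 to 0.186 CPM in control libraries) and Gja1 (25.9 to 31.3 CPM in EV-treated and 0.0531 to 0.127 CPM in control libraries) made up most of the EV-treated sum. Aldh1l1, on a joined entry, went the other way (1.04 to 2.29 CPM in EV-treated and 10.6 to 15.3 CPM in control libraries) and made up most of the control sum, and the defining markers Gfap and Aqp4 stayed at or below 0.143 CPM in all 6 libraries. Markers of neural progenitors summed to 2.20 to 3.40 CPM in EV-treated libraries and 45.9 to 82.7 CPM in control libraries, nearly all of it Nes, with Sox2, Pax6 and Dcx at or below 0.308 CPM in all 6. Oligodendrocyte lineage markers summed to 11.5 to 14.0 CPM in EV-treated libraries and 36.7 to 43.7 CPM in control libraries, most of it Mbp, with 1 of 6 higher and 2 lower in every EV-treated library and Olig1 and Mog at or below 0.0424 CPM in all 6. The higher one was Pdgfra, on a joined entry, at 2.74 to 3.26 CPM in EV-treated and 0.244 to 0.296 CPM in control libraries. Fibroblast markers summed to 10.6 to 16.5 CPM in EV-treated libraries and 13.4 to 35.9 CPM in control libraries, with Col1a1 lower in every EV-treated library and Dcn (0.549 to 1.17 CPM in EV-treated and 0 to 0.0473 CPM in control libraries) and Lum higher. Endothelial markers summed to 3.28 to 5.52 CPM in EV-treated libraries and 0.339 to 0.504 CPM in control libraries, with Cldn5 at or below 0.0156 CPM in all 6. Neuronal, lymphocyte and neutrophil markers summed to at most 0.396, 0.142 and 0.364 CPM in any library, and Elane was at 0 in all. The part of other cell types in the results below was not tested. In these bulk samples, fewer cells that carry a transcript and less of it per cell cannot be told apart.

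Of the 9 receptors, 6 were higher in every EV-treated library than in any control library and 3 were lower, and for none did the groups overlap. Gipr, Hcar2, Gpr132, Gpr18, Gpr35 and Gpr84 were the higher ones, and Cnr2, Gpr183 and Gpr65 the lower ones. Over all 16605 entries tested, the EV-treated libraries lay all above the control libraries in 35.2% and all below them in 36.1%. In edgeR's quasi-likelihood fit across all entries, 33.0% rose and 33.5% fell at an adjusted p under 0.05, and the 9 receptors were among those called. Since the receptors were selected on this contrast, nothing is read from their counts. The median log2 fold change, EV-treated over control, was 2.70 over the 9 receptors and -0.02 over all entries, and the median of its absolute size was 3.02 over the 9 and 0.81 over all entries. A larger size was favoured by choosing the 9 on these differences, so nothing is read from these medians either. No label states that replicates were grown as separate cultures, so spreads and p-values describe these 6 samples and may be technical.

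**Figure D1:**
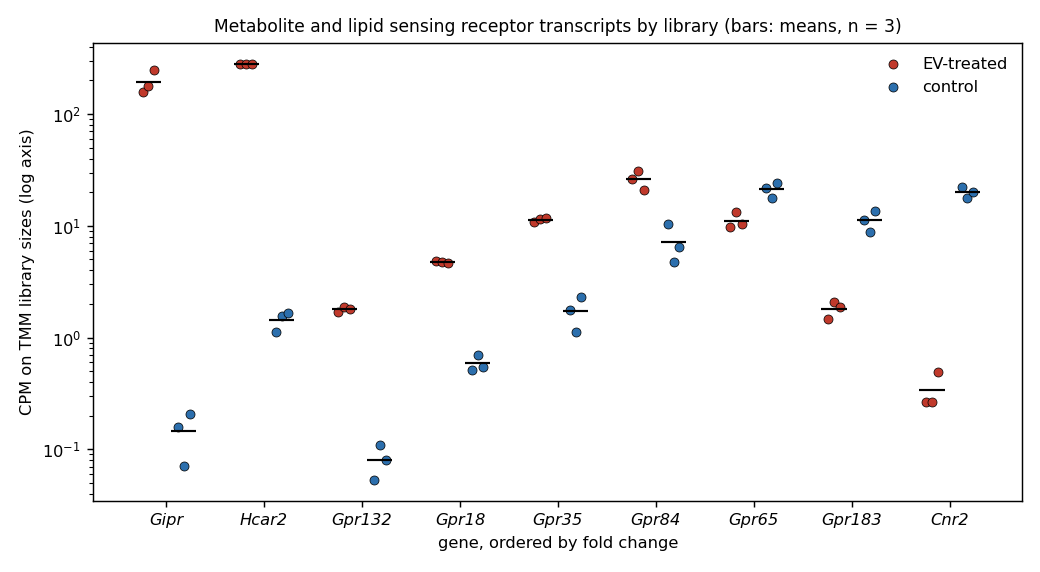
Level of each receptor transcript in each library (CPM on TMM library sizes, log axis), with EV-treated libraries left of control libraries and bars at the mean of 3. Gipr and Hcar2 stand at 157 to 284 CPM in EV-treated libraries and at 0.0709 to 1.66 CPM in control libraries, and Cnr2 stands at 0.264 to 0.492 CPM in EV-treated libraries and at 17.7 to 22.4 CPM in control libraries.

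Gipr, which binds the gut hormone GIP and raises cyclic AMP, had 157, 179 and 248 CPM in EV-treated libraries A, B and C, against 0.159, 0.0709 and 0.207 CPM in control libraries A, B and C. It averaged 195 ± 47.7 CPM in EV-treated and 0.146 ± 0.069 CPM in control libraries (SD, n = 3 each), a log2 fold change of 10.32 (SE 0.33). As raw counts, Gipr had 19431, 20367 and 31795 in the EV-treated libraries and 21, 9 and 39 in the control libraries, so the size of the ratio rests on few control counts. EV-treated C held the highest Gipr level of the 6 libraries. For scale, a floor of 3 counts corresponds to 0.0208 CPM in a control library on average, counting error only.

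Hcar2, the receptor of the ketone body beta-hydroxybutyrate and of niacin, had 279, 284 and 283 CPM in EV-treated libraries A, B and C, against 1.12, 1.54 and 1.66 CPM in control libraries A, B and C. Its mean was 282 ± 2.59 CPM in EV-treated and 1.44 ± 0.283 CPM in control libraries (SD, n = 3 each), a log2 fold change of 7.60 (SE 0.18). In CPM, the 3 EV-treated libraries lay close together, with a coefficient of variation of 0.918%, against 24.5% for Gipr in the same libraries. This closeness depends on the scale. Divided by bin length and scaled to the same total, as further below, Hcar2 stood at 342, 322 and 386 in EV-treated A, B and C. Hcar2 is a gene with 1 exon bin in the table.

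The first bases of both coding sequences, with the start codon in capitals, identify the transcripts that, of the 9 receptors, reached the highest levels in EV-treated cells. They come from GENCODE vM21 on GRCm38. The Gipr stretch lies at chr7:19164590-19165024 on the minus strand with 1 intron removed, and the Hcar2 stretch at chr5:123865349-123865438 on the minus strand.
Gipr: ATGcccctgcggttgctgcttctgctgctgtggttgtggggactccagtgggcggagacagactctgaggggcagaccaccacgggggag
Hcar2: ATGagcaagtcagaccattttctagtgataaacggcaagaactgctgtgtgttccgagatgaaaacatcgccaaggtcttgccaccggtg

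Gpr84, a receptor of medium-chain fatty acids that macrophages express on stimulation, had 26.0, 31.2 and 21.1 CPM in EV-treated libraries A, B and C, against 10.4, 4.76 and 6.47 CPM in control libraries A, B and C. Its log2 fold change was 1.86 (SE 0.26), the smallest among the 6 higher receptors, and the lowest EV-treated library was 2.03-fold above the highest control library. In the annotation, 842 of the 1550 bases of its bins lie within Gm49482, a gene on the opposite strand that the table does not count. The sources used here do not give the strand setting of the counting, so reads of the pair cannot be told apart.

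Gpr35, for which the tryptophan product kynurenic acid is a known ligand, had 10.7, 11.5 and 11.7 CPM in EV-treated libraries A, B and C, against 1.77, 1.11 and 2.32 CPM in control libraries A, B and C, a log2 fold change of 2.70 (SE 0.24). Gpr18, long an orphan receptor, with N-arachidonoyl glycine as a reported ligand, had 4.85, 4.77 and 4.65 CPM in EV-treated libraries A, B and C, against 0.516, 0.701 and 0.546 CPM in control libraries A, B and C, a log2 fold change of 3.02 (SE 0.19). Both were higher in each EV-treated library than in any control library. Gpr132, linked to lysophospholipids and oxidised fatty acids, had 1.70, 1.86 and 1.82 CPM in EV-treated libraries A, B and C, against 0.0531, 0.110 and 0.0796 CPM in control libraries A, B and C. Its log2 fold change was 4.46 (SE 0.31), on 211, 212 and 233 counts in the EV-treated libraries and 7, 14 and 15 counts in the control libraries. Gpr132 was thus well separated between the groups but low in both.

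Cnr2, the cannabinoid receptor of immune cells, had 0.266, 0.264 and 0.492 CPM in EV-treated libraries A, B and C, against 22.4, 17.7 and 20.2 CPM in control libraries A, B and C. It averaged 0.341 ± 0.131 CPM in EV-treated and 20.1 ± 2.33 CPM in control libraries (SD, n = 3 each), a log2 fold change of -5.87 (SE 0.25). The raw counts were 33, 30 and 63 in the EV-treated libraries and 2952, 2252 and 3813 in the control libraries. EV-treated C was highest among the EV-treated libraries, and without it the log2 fold change of Cnr2 was -6.25.

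Gpr183, also called EBI2, guides immune cells along gradients of oxysterols, oxidised forms of cholesterol. It had 1.45, 2.07 and 1.87 CPM in EV-treated libraries A, B and C, against 11.2, 8.81 and 13.5 CPM in control libraries A, B and C, a log2 fold change of -2.64 (SE 0.20). Gpr65, which couples extracellular acid to cyclic AMP, had 9.73, 13.4 and 10.4 CPM in EV-treated libraries A, B and C, against 22.0, 17.7 and 24.3 CPM in control libraries A, B and C. Its log2 fold change of -0.94 (SE 0.16) was the smallest in size of the 9, and the lowest control library was 1.33-fold above the highest EV-treated library. Of the 2049 bases in the bins of Gpr65, 1893 lie within Gm47566, an opposite-strand gene that the table does not count.

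Gpr183 and Gpr18 lie near each other on chromosome 14, and all bins of both lie within Ubac2, which runs on the opposite strand. They differed in opposite directions between the groups. Ubac2 itself averaged 27.5 ± 1.40 CPM in EV-treated and 24.3 ± 1.29 CPM in control libraries (SD, n = 3 each), a log2 fold change of 0.18 (SE 0.10). On GRCm38, Gpr183 lies at chr14:121952331-121965193 and Gpr18 at chr14:121911435-121915774, both on the minus strand. Gipr lies at chr7:19156061-19166127, Hcar2 at chr5:123863570-123865499, Gpr84 at chr15:103308236-103310438 and Gpr132 at chr12:112850876-112860916, all on the minus strand. Cnr2 lies at chr4:135895394-135920207, Gpr35 at chr1:92950865-92986391 and Gpr65 at chr12:98268635-98276624, all on the plus strand.

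**Figure D2:**
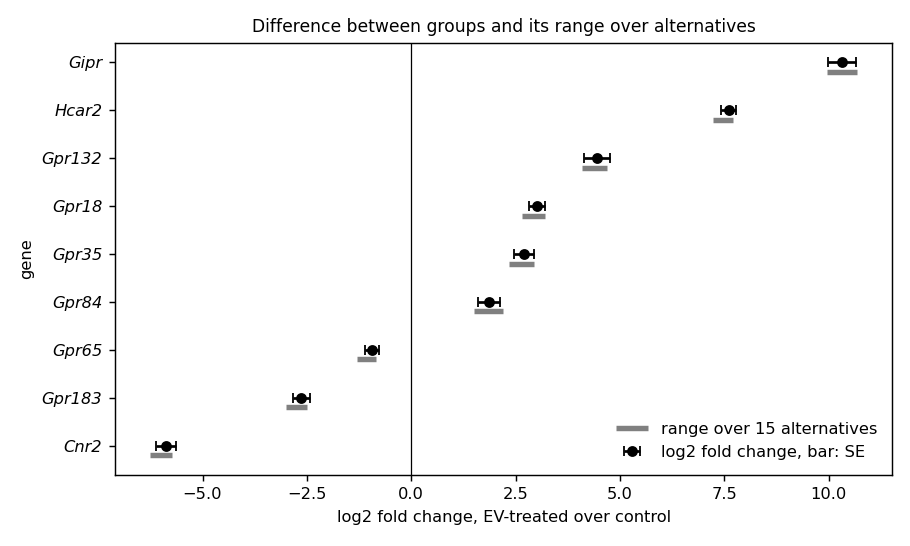
Log2 fold change of each receptor, EV-treated over control (points, with SE as bars), and below each point its range over 15 alternative settings (grey). The range nearest to 0 belongs to Gpr65, between -1.31 and -0.85.

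To rank the receptors against each other, counts were divided by the summed length of each gene's bins and scaled to the same total in every library, giving a length-scaled level. On this scale, EV-treated cells held most Hcar2, at 349.98 ± 33.1, followed by Gipr at 136 ± 45.3, Gpr84 at 39.9 ± 4.11, Gpr65 at 13.0 ± 1.56, Gpr18 at 8.70 ± 0.687 and Gpr35 at 5.61 ± 0.657 (SD, n = 3). The length-scaled levels of Gpr132, 1.76 ± 0.175, and Gpr183, 1.46 ± 0.261, overlapped over the EV-treated libraries, and Cnr2 was last at 0.210 ± 0.101. All other neighbours in this order were separate in all 3 EV-treated libraries.

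In control cells, the length-scaled level was highest for Gpr65, at 35.6 ± 7.08, followed by Cnr2 at 17.2 ± 2.00, Gpr84 at 15.7 ± 5.80 and Gpr183 at 13.0 ± 3.34 (SD, n = 3). Cnr2 overlapped with Gpr84 over the control libraries and Gpr84 with Gpr183, while Gpr65 was separate from Cnr2 and Gpr183 from Hcar2. Hcar2 followed at 2.56 ± 0.618, then Gpr18 at 1.53 ± 0.253 and Gpr35 at 1.23 ± 0.487, which overlapped, and last Gipr at 0.144 ± 0.0736 and Gpr132 at 0.113 ± 0.0403, which overlapped too. Hcar2 and Gipr, which led in EV-treated cells, were thus the fifth and the eighth of the 9 in control cells.

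A read that spans several exon bins may have been counted in each, which would raise genes with many bins over genes with 1. The order was therefore also taken from the longest bin of each gene alone, as CPM per kilobase. It was the same in EV-treated cells, with Hcar2 at 146 ± 1.33 and Gipr at 26.2 ± 6.18 CPM per kilobase (SD, n = 3). In control cells, Gpr35 and Gpr18 changed places, as did Gpr132 and Gipr, and in both pairs the libraries overlapped.

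Along the gene, Gipr was higher in every EV-treated library than in any control library in 21 of 21 exon bins. The 11 bins that are purely coding held 16.1 to 85.2 counts per base in the 3 EV-treated libraries summed, with a median of 41.7, and 43981 counts in EV-treated against 43 in control libraries. The 5 bins that belong to annotated transcripts other than the coding ones held 5.95 to 12.2 counts per base, with a median of 7.97, and 4813 counts in EV-treated against 4 in control libraries. Reads of Gipr in EV-treated cells therefore lay in the exons of the coding transcript from the first to the last. In those 5 bins their density was lower than in the 11 purely coding bins. The largest bin, of 1505 bases with coding and untranslated parts, held 9.63 counts per base, within the range of those 5. A read may be counted in each bin it spans, so densities of short and long bins are not strictly comparable.

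Cnr2 has a pair of alternative first exons in the table, and counts were found at the upstream one. The upstream bin of 226 bases, at chr4:135895394-135895619, held 4, 0 and 8 counts in EV-treated libraries A, B and C, against 152, 110 and 237 counts in control libraries A, B and C. The downstream bin of 115 bases, at chr4:135911818-135911932, held 0, 0 and 0 counts in EV-treated libraries A, B and C, against 0, 2 and 1 counts in control libraries A, B and C. The last bin, which holds the coding part, took 94.4% of the Cnr2 counts in control libraries.

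Gpr35 had 8 of 13 bins higher in every EV-treated library than in any control library, and the other 5 overlapped, 2 of them with no count in any library. Of the bins at its RefSeq starts, the one at chr1:92973122-92973281 held 74, 58 and 73 counts in EV-treated libraries A, B and C, against 15, 5 and 29 counts in control libraries A, B and C. The one further downstream, at chr1:92978922-92979301, held 35, 20 and 21 counts in EV-treated libraries A, B and C, against 1, 1 and 6 counts in control libraries A, B and C. The 3 bins upstream of these held 1 count in all 6 libraries together. The bins at both starts thus held counts in both groups, with more in EV-treated libraries, though the control counts of the downstream bin were few. Counts in a bin do not show that transcription began at the start before it.

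Every bin of Gpr84, Gpr132 and Gpr18 was higher in all EV-treated libraries, and every bin of Gpr183 and Gpr65 was lower. The direction of these receptors was thus the same in each of their bins. These bins are not independent, since a read may be counted in several, and 1 bin held most counts of each gene. The first bin of Gpr132 held 4, 9 and 4 counts in EV-treated A, B and C, against 0, 1 and 0 in control A, B and C.

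**Figure D3:**
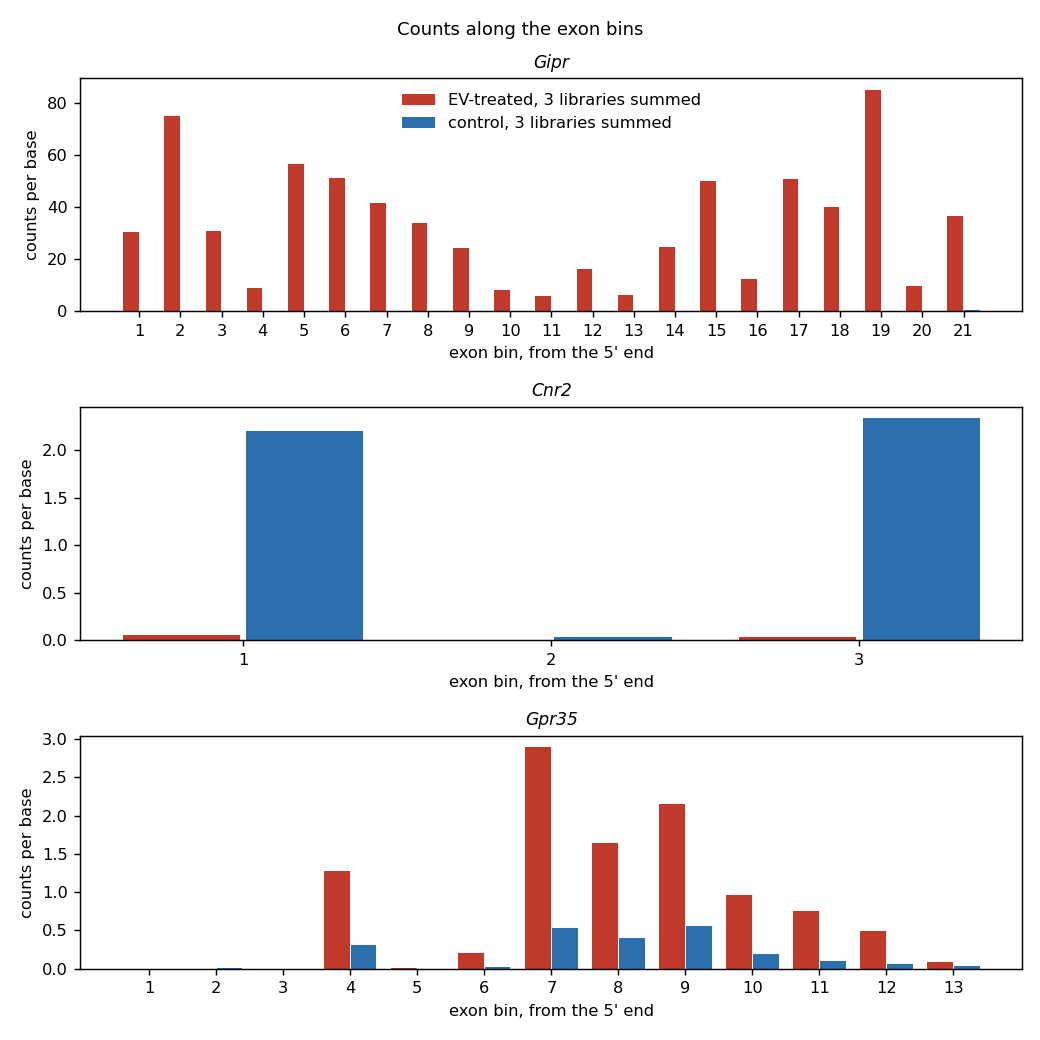
Counts per base in each exon bin of Gipr, Cnr2 and Gpr35, numbered from the 5′ end, with 3 EV-treated libraries summed on the left and 3 control libraries summed on the right of each pair. Gipr control bars reach at most 0.333 counts per base, Cnr2 bin 2 is close to empty beside bins 1 and 3, and Gpr35 bins 1 to 3 are empty or hold a single count.

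The bases before the RefSeq starts of Cnr2 and Gpr35 are shown because each gene has more than 1 annotated start and the counts of its first exons differ. The RefSeq starts of Cnr2, chr4:135895189 and chr4:135911680, lie before the first-exon bins of the table, and those of Gpr35, chr1:92973119 and chr1:92978903, lie just before its bins. RefSeq (GRCm38.p6) has windows for 7 of the 9 receptors, 9 windows in all, each from 250 bases before to 50 bases after a start; Gipr and Hcar2 were not among them. The 250 bases before the start are printed, with motif matches in capitals. The Cnr2 stretches are chr4:135894939-135895188 (upstream, plus strand) and chr4:135911430-135911679 (downstream, plus strand), and the Gpr35 stretches are chr1:92972869-92973118 (upstream, plus strand) and chr1:92978653-92978902 (downstream, plus strand).
Cnr2 upstream: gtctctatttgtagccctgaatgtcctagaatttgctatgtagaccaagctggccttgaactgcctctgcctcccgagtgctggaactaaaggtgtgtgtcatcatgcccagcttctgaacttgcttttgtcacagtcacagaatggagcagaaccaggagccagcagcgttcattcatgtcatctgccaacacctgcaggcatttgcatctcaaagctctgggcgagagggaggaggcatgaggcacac
Cnr2 downstream: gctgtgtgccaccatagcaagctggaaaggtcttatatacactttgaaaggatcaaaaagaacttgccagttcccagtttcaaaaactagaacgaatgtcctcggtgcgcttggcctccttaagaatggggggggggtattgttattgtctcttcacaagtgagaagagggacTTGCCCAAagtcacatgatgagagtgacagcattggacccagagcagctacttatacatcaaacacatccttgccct
Gpr35 upstream: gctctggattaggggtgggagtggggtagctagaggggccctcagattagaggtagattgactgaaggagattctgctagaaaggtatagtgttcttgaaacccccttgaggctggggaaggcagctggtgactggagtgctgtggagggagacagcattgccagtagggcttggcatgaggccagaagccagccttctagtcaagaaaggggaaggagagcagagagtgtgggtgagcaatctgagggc
Gpr35 downstream: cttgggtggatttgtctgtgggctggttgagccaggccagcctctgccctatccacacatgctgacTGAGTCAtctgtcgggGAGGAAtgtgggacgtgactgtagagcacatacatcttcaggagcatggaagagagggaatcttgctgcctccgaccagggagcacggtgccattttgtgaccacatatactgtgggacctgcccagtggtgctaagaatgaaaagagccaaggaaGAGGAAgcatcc

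Of 5 motifs searched on both strands of each 300-base window, the C/EBP motif TTGCNNAA was found in the downstream Cnr2 window, beginning at position -77 from the start, and not in the upstream one. It was also found in the Gpr183 window, and in 10.8% of all 32851 windows. The AP-1 motif TGANTCA was found in the downstream Gpr35 window, beginning at position -184 from the start, and in 7.81% of all windows. The PU.1 motif GAGGAA was found in the same Gpr35 window at positions -168 and -12 and in the Gpr65 window, and in 28.3% of all windows. The kappa-B motif, 10 letters bound by NF-kappa-B factors, was found in the Gpr132 window at position -88 and in 8.46% of all windows. TATAAA was found in the Gpr65 window on the strand opposite to the gene, at position -175, and in 13.6% of all windows. None of the 5 motifs was in the windows of Gpr84 or Gpr18, which says only that these letters are not there.

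The genes whose levels over the 6 libraries were most like those of Gipr and Cnr2 were taken by the root mean square difference of log2 CPM, among 11968 named protein-coding entries. For Gipr these were Syt7, a calcium sensor of membrane fusion (difference 0.67), Adm, which encodes the peptide hormone adrenomedullin (0.68), and U90926 (0.79). Adm averaged 254 ± 31.8 CPM in EV-treated and 0.208 ± 0.0264 CPM in control libraries (SD, n = 3 each). For Cnr2 they were Plekhh2 (0.28), Slc9a3r2, a scaffold protein of membrane transporters (0.47), and Rtn4rl1, a relative of the Nogo receptor (0.50). Plekhh2 averaged 0.337 ± 0.112 CPM in EV-treated and 24.2 ± 7.33 CPM in control libraries (SD, n = 3 each).

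Related receptors were taken from a list of 31 others for lipids, protons and metabolites, of which 15 had enough counts to be tested; levels given with ± are means and SD of 3 libraries each. In edgeR's quasi-likelihood test with Benjamini-Hochberg adjustment over all entries, 6 of these rose, 7 fell and 2 did not pass. Their median log2 fold change was -0.30, against -0.02 over all entries, of which 33.0% rose and 33.5% fell. Gpr31b, the mouse counterpart of the human receptor of the fatty acid 12-HETE, rose to 2.69 ± 0.663 CPM in EV-treated libraries, against 0.420 ± 0.143 CPM in control libraries (log2 fold change 2.68, SE 0.30, adjusted p = 3.06e-05). S1pr1, the sphingosine 1-phosphate receptor that steers lymphocyte exit, fell to 5.31, 3.74 and 5.59 CPM in EV-treated libraries A, B and C, against 94.2, 56.9 and 57.2 CPM in control libraries A, B and C (log2 fold change -3.83, SE 0.24, adjusted p = 6.50e-07). The lysophosphatidic acid receptors Lpar6 (log2 fold change -2.52, SE 0.21, adjusted p = 4.88e-06) and Lpar5 (-1.05, SE 0.18, adjusted p = 0.000531) fell too. The 16 receptors not tested reached at most 0.237 CPM in any library, and among them the lactate receptor Hcar1, neighbour in family to Hcar2, reached 0.0781 CPM and the brain cannabinoid receptor Cnr1 0.0703 CPM.

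**Figure D4:**
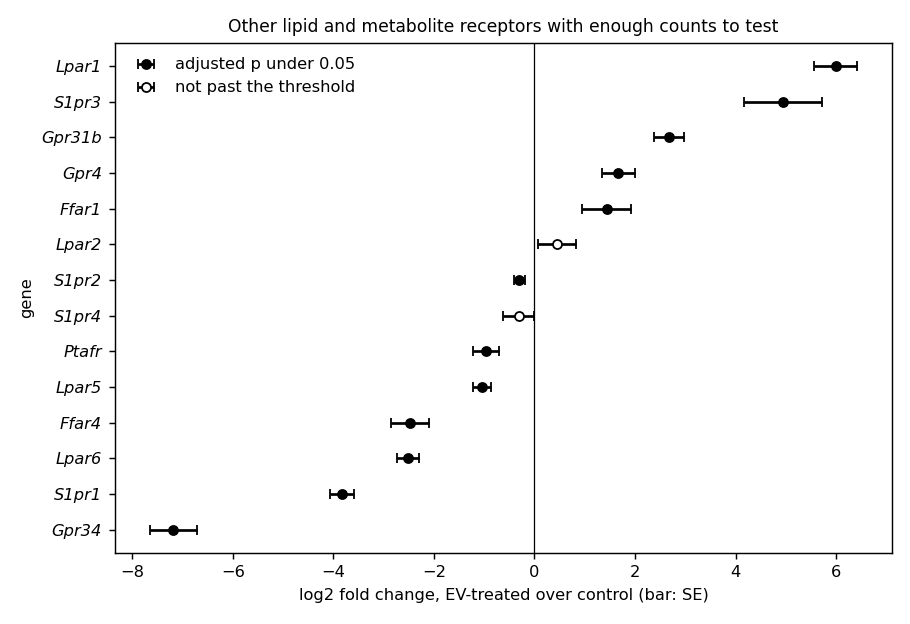
Log2 fold change, EV-treated over control, of 14 of the 15 tested receptors from the list of 31 others (bars: SE; filled points: adjusted p under 0.05). Points lie on both sides of 0, from Gpr34 at -7.18 to Lpar1 at 5.99.

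Gipr belongs to class B, the receptors of peptide hormones. Of 14 others in that class 7 were tested, of which 2 rose, 1 fell and 4 did not pass, with a median log2 fold change of -0.70, beside 33.0% of all entries that rose and 33.5% that fell. The number that fell was 3 without EV-treated B or with no filter, and 2 without control B, with limma-voom or with library totals as the scale. Glp2r, the receptor of the gut hormone GLP-2, rose to 4.15 ± 0.413 CPM in EV-treated libraries, against 1.28 ± 0.297 CPM in control libraries (log2 fold change 1.69, SE 0.21, edgeR adjusted p = 6.42e-05). The other rise was Calcr, at 0.258 to 0.500 CPM in EV-treated libraries and 0 in all control libraries, and Glp1r, the other incretin receptor, reached at most 0.0323 CPM in any library. Of 5 genes that make or cut incretin peptides, Gip, the gene of the Gipr ligand, had no count in any of the 6 libraries. Pcsk1, a hormone-processing protease, was the sole one tested and fell to 0.110 ± 0.0852 CPM in EV-treated libraries, against 0.385 ± 0.183 CPM in control libraries (log2 fold change -1.79, SE 0.65, edgeR adjusted p = 0.0336). The call of Pcsk1 was lost without EV-treated B (edgeR adjusted p = 0.0707), EV-treated C (0.0621), control A (0.0566) or control B (0.123), and without EV-treated A its log2 fold change was -2.52.

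Of 4 enzymes that make or break down oxysterols, the ligands of Gpr183, 3 were tested, of which 2 fell and 1 did not pass, with a median log2 fold change of -2.86, where 33.5% of all entries fell. Ch25h, which makes the oxysterol precursor of the Gpr183 ligand, fell to 3.66 ± 0.336 CPM in EV-treated libraries, against 26.5 ± 6.13 CPM in control libraries (log2 fold change -2.86, SE 0.18, edgeR adjusted p = 6.90e-07). Cyp27a1, a sterol hydroxylase, fell to 0.285 ± 0.164 CPM in EV-treated libraries, against 11.3 ± 1.19 CPM in control libraries (log2 fold change -5.31, SE 0.32, edgeR adjusted p = 5.08e-07), and in its fullest bin alone the log2 fold change was -4.26. Hsd3b7, which breaks the ligand down and whose entry joins 3 genes, did not pass, and Cyp7b1, which makes the ligand from the product of Ch25h, reached at most 0.0527 CPM in any library.

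All 10 enzymes of endocannabinoids, the ligands of Cnr2, were tested, and 4 rose, 5 fell and 1 did not pass, with a median log2 fold change of -0.40 (all entries: 33.0% rose and 33.5% fell). The diacylglycerol lipases, which make 2-arachidonoylglycerol, both fell: Daglb to 38.8 ± 3.19 CPM in EV-treated libraries, against 353 ± 28.8 CPM in control libraries (log2 fold change -3.19, SE 0.12, edgeR adjusted p = 3.05e-08), and Dagla to 8.14 ± 1.30 CPM, against 31.0 ± 4.71 CPM (log2 fold change -1.93, SE 0.16, edgeR adjusted p = 3.65e-06). In its fullest bin alone, Daglb fell by 1.75 on the log2 scale. Abhd12, a hydrolase of the same pathway, fell by 1.98 on the log2 scale (SE 0.12, edgeR adjusted p = 5.99e-07). Gde1, a phosphodiesterase linked to anandamide synthesis, rose to 1449 ± 154 CPM in EV-treated libraries, against 97.7 ± 23.7 CPM in control libraries (log2 fold change 3.89, SE 0.20, edgeR adjusted p = 1.54e-07). Naaa, which hydrolyses N-acylethanolamines, and Abhd6 rose by 1.70 (SE 0.14) and 0.96 (SE 0.14) on the log2 scale, with edgeR adjusted p of 3.35e-06 and 0.000223.

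Ketone body genes bear on a ligand of Hcar2, beta-hydroxybutyrate. Lactate genes were listed together with them, but lactate is the ligand of Hcar1, which had too few counts to be tested. Of 10 listed 9 were tested, and 5 rose, 3 fell and 1 did not pass, with a median log2 fold change of 1.12 (all entries: 33.0% rose and 33.5% fell). The lactate and ketone body transporters rose: Slc16a3 to 1072 ± 81.9 CPM in EV-treated libraries, against 34.6 ± 5.84 CPM in control libraries (log2 fold change 4.96, SE 0.17, edgeR adjusted p = 1.38e-08), and Slc16a1 by 1.81 (SE 0.11, edgeR adjusted p = 5.85e-07). Ldha, the lactate dehydrogenase subunit of glycolytic cells, rose to 5741 ± 642 CPM in EV-treated libraries, against 507 ± 66.9 CPM in control libraries (log2 fold change 3.50, SE 0.17, edgeR adjusted p = 1.04e-07). Ldhb fell to 1.07, 0.967 and 0.695 CPM in EV-treated libraries A, B and C, against 44.6, 23.6 and 9.78 CPM in control libraries A, B and C (log2 fold change -4.84, SE 0.51, edgeR adjusted p = 2.33e-05), and without control A its log2 fold change was -4.22. Acat1 and Oxct1, which act in the breakdown of ketone bodies, fell by 2.68 (SE 0.13) and 0.80 (SE 0.11) on the log2 scale, with edgeR adjusted p of 1.26e-07 and 0.000117.

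Of 10 kynurenine enzymes, the pathway of the Gpr35 ligand, 7 were tested, and 1 rose, 4 fell and 2 did not pass, with a median log2 fold change of -0.77 (all entries: 33.0% rose and 33.5% fell). Of the aminotransferases that make kynurenic acid, Kyat1 (log2 fold change -1.30, SE 0.24, edgeR adjusted p = 0.000915) and Kyat3 (-0.77, SE 0.22, edgeR adjusted p = 0.0121) fell, and Aadat, at most 0.109 CPM in any library, was not tested. Taking the bin with the most counts alone, Kyat3 did not pass (-0.50, SE 0.38, edgeR adjusted p = 0.264). Afmid, which makes kynurenine and whose entry joins 3 genes, fell by 0.70 on the log2 scale (SE 0.10, edgeR adjusted p = 0.000196). Ido1, the inducible entry enzyme, reached at most 0.0565 CPM in any library.

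The receptor kinases and arrestins, which act on G protein-coupled receptors in general, were all 7 tested, and 2 rose, 2 fell and 3 did not pass, with a median log2 fold change of -0.09 (all entries: 33.0% rose and 33.5% fell). The number that fell was 4 with library totals as the scale or in the fullest bin of each gene, and 3 with upper-quartile scaling or the replicate block. Grk3 rose to 56.2 ± 4.99 CPM in EV-treated libraries, against 14.8 ± 3.22 CPM in control libraries (log2 fold change 1.92, SE 0.16, edgeR adjusted p = 3.93e-06), and Arrb1 rose by 1.14 (SE 0.13, edgeR adjusted p = 3.65e-05). Grk6 fell by 1.62 (SE 0.13, edgeR adjusted p = 3.51e-06) and Arrb2, whose entry is shared with another gene, by 0.93 (SE 0.11, edgeR adjusted p = 6.29e-05) on the log2 scale.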

How the data were processed

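RNA was extracted with Trizol, selected for polyadenylated transcripts and made into libraries with the NEBNext Ultra kit, per the labels' protocols. Trimmomatic 0.36, STAR, Subread and DESeq2 are named in the submitters' processing notes, with the build GRCm38, but the sources used here do not give their settings. The authors deposited raw counts per exon bin, whole numbers, per the file headers, for 425461 bins. The totals per library exceed the stated number of reads, so a read may be counted in several bins and a gene's sum is not a number of molecules.

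Counts were summed over bins to 48005 entries, of which 1194 join several genes. Entries were filtered with filterByExpr (16605 left), scaled with TMM (factors 0.855 to 0.921 in EV-treated and 1.09 to 1.16 in control libraries) and fitted with edgeR 4.0.16 (glmQLFit, glmQLFTest, R 4.3.3), without covariates, over all 6 libraries. Tests were 2-sided with Benjamini-Hochberg adjustment over all entries and a threshold of 0.05. The filter could be passed on the counts of 1 group alone. SEs were derived from the fold change and the F statistic, as log2 fold change over root F. The fit was also run on simulated data; the recovery it had to reach was lowered after a first version failed, and nothing here rests on it. Libraries of the same group all differed by more than counting noise (chi-square of 74.1 to 223 per degree of freedom), so each was kept as a sample.

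The 9 receptors and all lists were chosen with earlier results of these data known. Named from each list were up to 3 rising and 3 falling genes with the smallest p among those past the threshold and with a mean log2 CPM of at least 0; for Gipr and Cnr2, the 3 entries most alike. Genes without enough counts to test, genes that did not pass, Calcr, Pcsk1, Ubac2, the marker genes, and Gpr34, Lpar1, Ptafr, Faah, Ido2 and Haao were named after their values were seen. Some genes that the rule or the lists take are counted in their lists but not reported here. As alternatives, scaling was done by RLE, the upper quartile or library totals, the filter was dropped or made stricter (at least 50 counts in 3 libraries), and DESeq2 1.42.0 or limma-voom (limma 3.58.1) took the place of edgeR. Further alternatives were the fullest bin of each gene alone, the replicate letter as a block, and leaving out each library. Tables and figures were made with Python 3.11.15, pandas 2.3.3 and matplotlib 3.10.9.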

Additional observations from a re-analysis of the deposited data

How the results depend on the processing

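For the 9 receptors, whose choice fixes the direction, the log2 fold change over the 15 alternatives ran from 9.96 to 10.68 for Gipr, 7.23 to 7.70 for Hcar2, 4.09 to 4.69 for Gpr132, 2.65 to 3.20 for Gpr18, 2.33 to 2.95 for Gpr35, 1.49 to 2.19 for Gpr84, -1.31 to -0.85 for Gpr65, -3.003 to -2.50 for Gpr183 and -6.25 to -5.72 for Cnr2. Scaling by library totals alone moved the median of all entries to -0.38 and the share of calls that rose to 34.0%, against 49.7% with TMM, and upper-quartile scaling gave -0.14 and 44.1%. The labels do not state whether the replicate letters pair the samples, and these few libraries cannot settle it. Same-letter libraries deviated from their group means with correlations of 0.0350 (A), 0.167 (B) and 0.210 (C). Pairs of different letters had correlations of -0.199 to 0.0341. Each library correlated best with its own letter, but for EV-treated A the margin was slight (0.0350 against 0.0341 with control B). In the column headers, control and EV-treated libraries of the same letter carry different numbers. Libraries that share a header number had correlations of 0.00973 (EV-treated B with control A) and -0.199 (EV-treated C with control B). With the letter as a replicate block, 5758 entries rose and 5851 fell, against 5482 and 5555 without it, and Gipr and Cnr2 had log2 fold changes of 10.36 and -5.90. Among the 31 other receptors, 4 to 7 rose and 6 or 7 fell over the alternatives, against 6 and 7. Of 34 tested genes named as changed, 2 lost the call under an alternative, Pcsk1 and Kyat3, with the values given beside them; the cause was not tested. No call on these genes reversed. Pcsk1 and Calcr could not be tested under the stricter filter or in the single bin. Depth limits the Gipr and Gpr132 ratios, whose control libraries held 9 to 39 and 7 to 15 counts.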

Other observations

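Some related genes outside the naming rule, picked after their values were seen, are given here. Gpr34, a lysophosphatidylserine receptor typical of microglia, had 0.0161, 0.00879 and 0.0781 CPM in EV-treated libraries A, B and C, against 5.71, 3.96 and 6.12 CPM in control libraries A, B and C (log2 fold change -7.18, SE 0.46, edgeR adjusted p = 7.41e-07). The EV-treated counts of Gpr34 were 2, 1 and 10, so the size of its ratio rests on few reads, and without EV-treated C its log2 fold change was -8.61. Lpar1, a lysophosphatidic acid receptor like Lpar5 and Lpar6, had 3.54, 3.10 and 2.80 CPM in EV-treated libraries A, B and C, against 0.00759, 0.0709 and 0.0637 CPM in control libraries A, B and C (log2 fold change 5.99, SE 0.43, edgeR adjusted p = 1.49e-06). Of the 3 lysophosphatidic acid receptors named, Lpar1 thus rose while Lpar5 and Lpar6 fell. Ptafr, the receptor of platelet-activating factor, fell by 0.96 on the log2 scale (SE 0.25, edgeR adjusted p = 0.00722).

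Faah, the hydrolase of anandamide, rose to 1.56 ± 0.221 CPM in EV-treated libraries, against 0.128 ± 0.0782 CPM in control libraries (log2 fold change 3.64, SE 0.42, edgeR adjusted p = 4.15e-05), and in its fullest bin alone the log2 fold change was 4.49. Of the kynurenine enzymes, Ido2 was the one that rose, to 1.39 ± 0.220 CPM in EV-treated libraries, against 0.109 ± 0.0358 CPM in control libraries (log2 fold change 3.68, SE 0.33, edgeR adjusted p = 7.07e-06), and in its fullest bin alone the log2 fold change was 3.09. Haao, further along that pathway, fell to 0.0586 ± 0.0338 CPM in EV-treated libraries, against 0.968 ± 0.485 CPM in control libraries (log2 fold change -4.05, SE 0.52, edgeR adjusted p = 8.78e-05).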
